A study of Mus musculus with 48 samples.

Results

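The transcripts of 10 genes that mark reactive astrocytes were followed through the dentate gyrus of mice in the first 2 weeks after kainate. The set was chosen by gene symbol from the deposited count table: Gfap, Vim and Nes, which encode intermediate filament proteins; Serpina3n and Lcn2, which encode secreted proteins; Cd44 and S1pr3, which encode cell surface receptors; Aspg and Steap4, which encode enzymes; and Hspb1, which encodes a small heat shock protein. All 10 were found among the 55357 genes of the table, and all 10 passed the filter for low counts, which 21390 genes passed. They were named by symbol with earlier results of these data known.

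Astrocytes respond to injury, seizures and inflammation by a graded change called reactive astrogliosis, in which the cell body and processes thicken, the filament network of GFAP and vimentin expands, and secreted and surface proteins are added. Much of this programme is driven through the shared receptor subunit gp130, the kinases JAK1 and JAK2 and the transcription factor STAT3, which cytokines such as LIF, CNTF and oncostatin M engage. In the dentate gyrus, reactive astrocytes are a regular feature of the sclerotic hippocampus of temporal lobe epilepsy. Several of the 10 genes are not specific to astrocytes: nestin is also made by neural progenitors and endothelial cells, vimentin by endothelial cells and fibroblasts, CD44 by leukocytes and lipocalin-2 by neutrophils.

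Adult wild-type C57BL/6J mice of both sexes, aged 8 to 10 weeks per the study's methods, received 1 injection of kainate or of saline into the hippocampus of one side. Kainate, a glutamate receptor agonist, induces status epilepticus, and mice entered the kainate group only after at least 1 observed convulsive seizure. The dorsal dentate gyrus of the injected side (the epileptogenic zone, EZ) and of the opposite side (the peri-ictal zone, PIZ) was taken 3, 7 or 14 days later, so that 24 mice gave 48 poly-A RNA libraries in 12 groups of 4. The saline mice carried the same needle track as the kainate mice, and in both treatments the PIZ was never itself injected. Mice are named here by the numbers in their labels.

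Each library held between 17762656 and 25712975 counts. Levels are given as CPM (counts scaled to a common library total) after TMM scaling for library composition, and a gene is said to have risen or fallen where the edgeR quasi-likelihood test gave an adjusted p under 0.01 and a change of over 1.5-fold. Shares of all genes that passed a test come from that edgeR fit with all mice. They were not computed for other methods or with mice left out. In whole pieces of tissue, fewer cells of a type and less RNA per cell cannot be told apart. Granule neuron markers (Prox1, Calb1, C1ql2, Dsp and Rbfox3) were present, with a summed level of 845 to 978 CPM in the saline EZ at day 3. Several libraries ranked first or last of their group for most of the 10 genes: in the saline EZ, mouse 18 at day 3 was lowest for 10 and mouse 31 at day 14 for 9. The EZ of kainate mouse 27 at day 14 had the highest level of its group for 10 of the 10 genes, with a summed level of 8184 CPM against 901 to 1786 CPM in the other 3 mice. Its microglial markers were also high, at 3510.0 CPM against 560.0 to 815 CPM. EZ calls of the 10 genes at day 14 are therefore given with and without it.

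**Figure D1:**
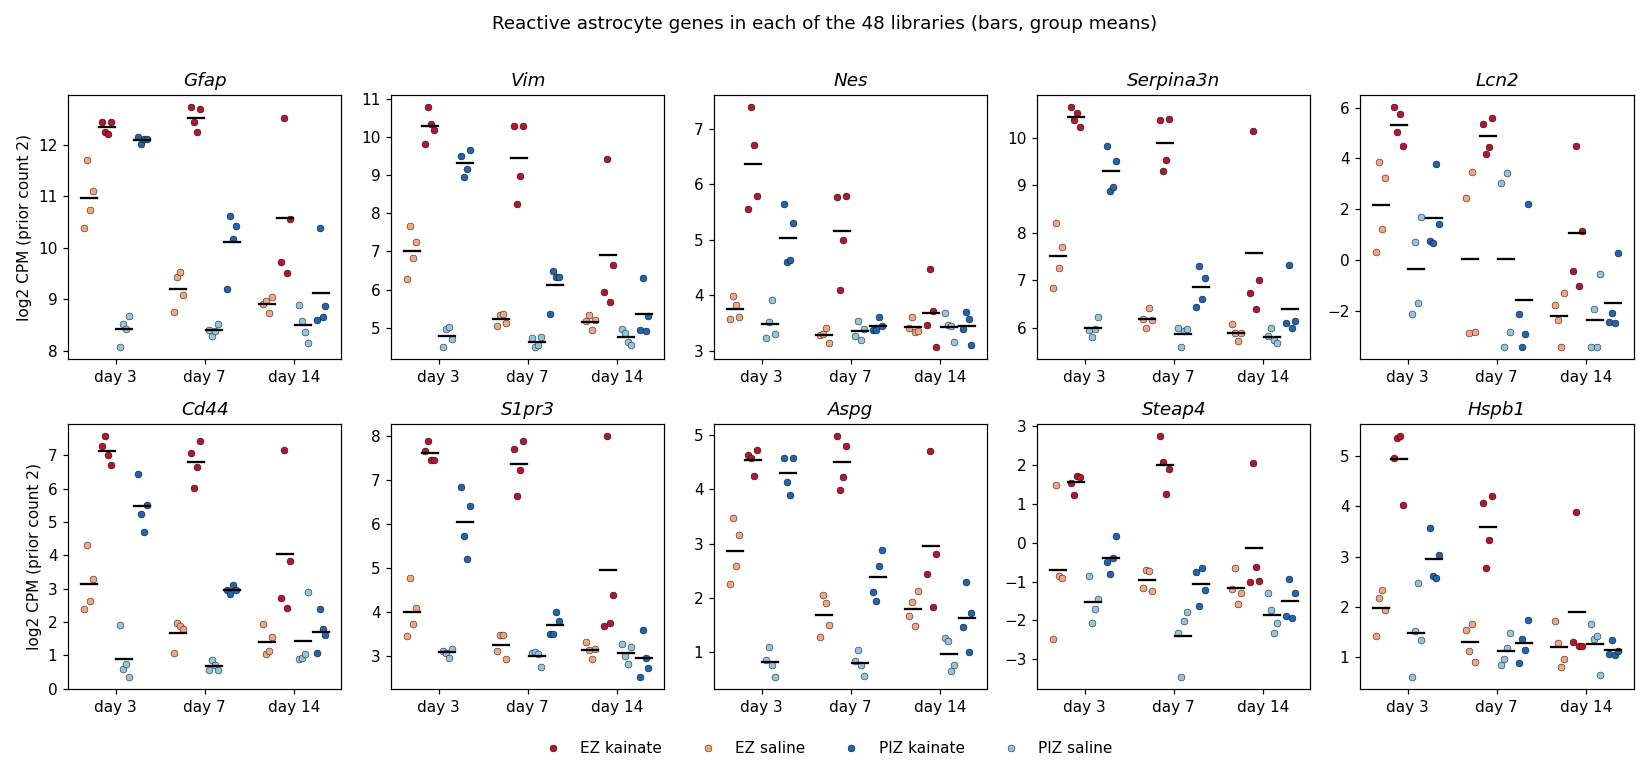
Level of each of the 10 genes in all 48 libraries, as log2 CPM with a prior count of 2, by day, side and treatment; points are mice and bars are the means of 4. At day 3 the kainate libraries of both sides lay above the saline PIZ libraries for Gfap, Vim, Serpina3n, Cd44, S1pr3 and Aspg, and at day 14 a single EZ kainate library stood far above its group.

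At 3 days after kainate, 8 of the 10 genes had risen in the EZ and 7 of the 10 in the PIZ, where 16.1% and 7.12% of all tested genes had risen. The median log2 fold change of the 10 was 2.84 for the EZ and 3.24 for the PIZ, beside medians over all tested genes of 0.03 and 0.02. In each region the kainate and saline libraries did not overlap for 9 of the 10, which was the case, with kainate higher, for 23.9% of all genes in the EZ and 17.1% in the PIZ.

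Gfap (ENSMUSG00000020932.15; GRCm39 chr11:102778159-102791738, minus strand), the principal intermediate filament of astrocytes, was the most abundant of the 10. At day 3 its level was 268, 367, 343 and 409 CPM in the 4 saline PIZ libraries and 4549, 4107, 4422 and 4398 CPM in the 4 kainate PIZ libraries. The groups lay far apart, and the log2 fold change was 3.65 ± 0.44 (SE), adjusted p = 3e-07. In the EZ, Gfap stood at 1325, 3307, 1692 and 2196 CPM after saline and at 5565, 4875, 4709.9 and 5524 CPM after kainate. These groups did not overlap either, but the saline libraries were already high and spread widely, and the log2 fold change was 1.28 ± 0.40 (SE), adjusted p = 0.0079. That call was lost when any 1 of 7 of the 8 mice was left out, all but saline mouse 29, with log2 fold changes of 1.11 to 1.32 and adjusted p-values between 0.0135 and 0.0384. In both zones Gfap thus ended near the same level, 5168 CPM in the EZ and 4369 CPM in the PIZ on average, from very different saline levels.

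Vim (ENSMUSG00000026728.10; GRCm39 chr2:13578738-13587639, plus strand), the filament that pairs with GFAP in reactive cells, moved further than Gfap on both sides. In the PIZ it was at 22.3, 31.1, 32.5 and 25.9 CPM after saline and at 729.6, 492, 577 and 807 CPM after kainate, a log2 change of 4.54 ± 0.55 (SE), adjusted p = 3.4e-07. In the EZ it was at 78.1, 204, 114 and 152 CPM after saline and at 908, 1768, 1292 and 1172 CPM after kainate, a log2 change of 3.23 ± 0.51 (SE), adjusted p = 4.57e-06. Neither pair of groups overlapped. Nes (ENSMUSG00000004891.17; GRCm39 chr3:87878385-87887758, plus strand), a filament of progenitor and reactive cells, was at 11.8, 15.8, 14.0 and 12.1 CPM in the saline EZ and at 47.1, 169, 105 and 55.5 CPM in the kainate EZ. Every kainate library was well above every saline library, with kainate mouse 38 the highest, and the log2 fold change was 2.81 ± 0.31 (SE), adjusted p = 2.44e-08. In the PIZ, Nes rose less, from 11.3 ± 2.58 to 34.5 ± 12.4 CPM (SD, n = 4), with a log2 change of 1.6 ± 0.31 (SE), adjusted p = 0.000214.

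Of the secreted proteins, Serpina3n (ENSMUSG00000021091.9; GRCm39 chr12:104372810-104380597, plus strand), an inhibitor of serine proteases, rose on both sides. Its EZ level was 114, 297, 154 and 207 CPM after saline and 1615, 1332, 1476 and 1200.3 CPM after kainate, a log2 change of 2.86 ± 0.48 (SE), adjusted p = 9.76e-06. Its PIZ level went from 63.7 ± 7.93 to 654 ± 205 CPM (SD, n = 4), a log2 change of 3.36 ± 0.49 (SE), adjusted p = 6.62e-06. Serpina3n lies in a cluster of near-identical serpin genes, and reads that map to several places were counted at their primary alignment, so its counts may be split with its neighbours. Lcn2 (ENSMUSG00000026822.15; GRCm39 chr2:32274645-32278264, minus strand), which binds bacterial siderophores and is an acute-phase protein, did not pass the edgeR test on either side. It was at 65.3, 33.2, 53.5 and 22.6 CPM in the kainate EZ and at 1.15, 14.6, 2.26 and 9.40 CPM in the saline EZ, without overlap but with a wide spread among the saline mice, and the log2 fold change was 2.67 ± 1.13 (SE), adjusted p = 0.048, while limma-voom called it (3.30, adjusted p = 1.59e-05). In the PIZ its groups overlapped, at 1.6, 1.5, 13.6 and 2.60 CPM after kainate and 0.139, 1.56, 0.217 and 3.14 CPM after saline.

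Both surface receptors rose strongly. Cd44 (ENSMUSG00000005087.18; GRCm39 chr2:102641486-102732010, minus strand), a receptor for hyaluronan and osteopontin, was at 5.12, 19.9, 6.04 and 9.65 CPM in the saline EZ and 156, 189, 128 and 105 CPM in the kainate EZ, a log2 change of 3.83 ± 0.64 (SE), adjusted p = 8.77e-06. In the PIZ it went from 3.67, 1.41, 1.56 and 1.18 CPM to 86.2, 37.7, 25.6 and 44.9 CPM, a log2 change of 4.63 ± 0.70 (SE), adjusted p = 1.13e-05. Of the 10 genes, Cd44 had the largest log2 fold change in each zone at day 3. S1pr3 (ENSMUSG00000067586.5; GRCm39 chr13:51561702-51576833, plus strand), a receptor for sphingosine-1-phosphate, was at 10.8, 27.4, 13.1 and 16.8 CPM in the saline EZ and 203, 236, 176 and 176 CPM in the kainate EZ, and its log2 fold change was 3.54 ± 0.55 (SE), adjusted p = 3.4e-06. In the PIZ it rose from 8.32 ± 0.516 to 72.1 ± 34.3 CPM (SD, n = 4), by 3.12 ± 0.55 (SE), adjusted p = 8.91e-05 on the log2 scale. No saline library reached the lowest kainate library for either receptor on either side.

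The enzymes split. Aspg (ENSMUSG00000037686.7; GRCm39 chr12:112073076-112094007, plus strand), an asparaginase, rose on both sides, and it followed Gfap in reaching like levels in the kainate EZ (24.8, 23.8, 18.8 and 26.4 CPM) and the kainate PIZ (23.9, 17.4, 14.8 and 23.9 CPM). Its saline levels were 4.68, 11.1, 5.95 and 8.87 CPM in the EZ and 1.72, 2.04, 1.6 and 1.37 CPM in the PIZ. The log2 fold change was accordingly smaller in the EZ, at 1.62 ± 0.36 (SE), adjusted p = 0.000295, than in the PIZ, at 3.57 ± 0.40 (SE), adjusted p = 9.5e-08. Steap4 (ENSMUSG00000012428.10; GRCm39 chr5:8010260-8032214, plus strand), a metalloreductase of the cell surface and endosome, was the least abundant of the 10 and did not pass the edgeR test at day 3. Its EZ levels were 2.83, 2.26, 3.23 and 3.16 CPM after kainate and 0.0883, 2.70, 0.461 and 0.438 CPM after saline, where saline mouse 29 alone reached the kainate range. Without mouse 29 the log2 fold change went from 1.63 to 3.11 and passed the test. Limma-voom (2.54, adjusted p = 6.28e-08) and scaling by library size alone (1.75, adjusted p = 0.00825) called it with all mice.

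Hspb1 (ENSMUSG00000004951.11; GRCm39 chr5:135916760-135918417, plus strand), the small heat shock protein HSP27, rose in the EZ at day 3. It stood at 31.1, 40.6, 41.6 and 16.1 CPM in the kainate EZ against 2.60, 4.46, 4.93 and 3.75 CPM in the saline EZ, a log2 change of 3.04 ± 0.44 (SE), adjusted p = 1.18e-06. In the PIZ it was at 11.8, 6.06, 5.87 and 8.11 CPM after kainate and 1.44, 2.77, 5.5 and 2.46 CPM after saline, and the log2 fold change of 1.38 ± 0.43 (SE), adjusted p = 0.0168 did not pass the threshold with edgeR. DESeq2 (adjusted p = 0.00889), limma-voom (adjusted p = 0.000521) and edgeR without saline mouse 37 (1.84, adjusted p = 0.00591) called it there. Hspb1 was also the only one of the 10 genes with a heat shock element, the letters GAANNTTC on either strand, within the 250 bases before its transcript start. The letters occurred in 6.33% of 21770 such windows. The window is shown because it holds 2 of them, in capitals, beginning 104 and 84 bases before the start (GRCm39, plus strand, chr5:135916510-135916759, upstream of the first exon).
Hspb1: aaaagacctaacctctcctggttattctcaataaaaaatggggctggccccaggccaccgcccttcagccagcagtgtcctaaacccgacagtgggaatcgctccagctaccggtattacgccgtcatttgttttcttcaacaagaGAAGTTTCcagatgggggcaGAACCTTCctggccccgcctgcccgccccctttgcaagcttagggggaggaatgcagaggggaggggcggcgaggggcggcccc
The interferon-gamma activated site bound by STAT proteins, TTCNNNGAA, and the AP-1 site, TGANTCA, were found in 0 of the 10 windows, beside 7.7% and 6.17% of all windows. These are matches of letters only.

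**Figure D2:**
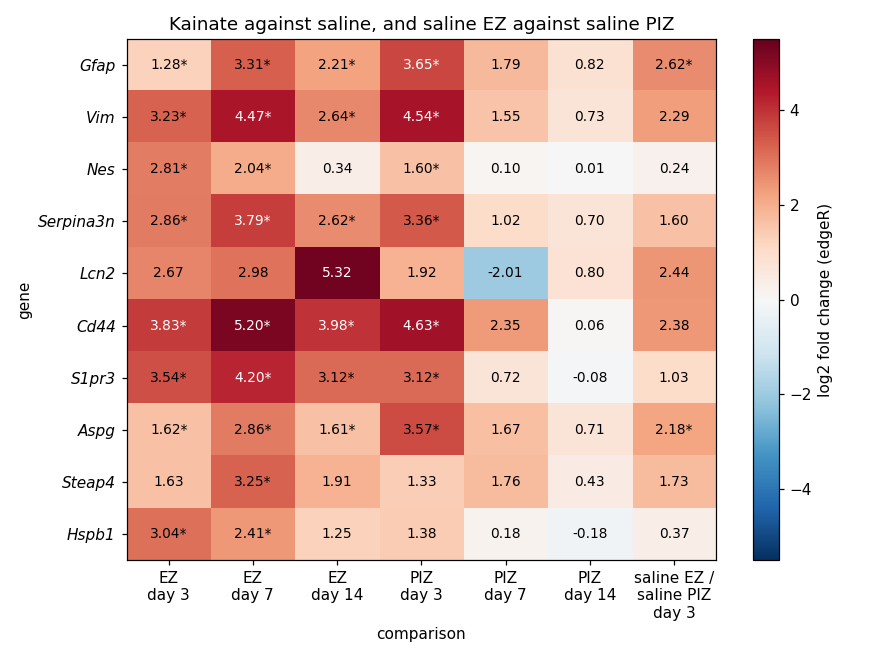
Log2 fold changes of the 10 genes (rows) for kainate against saline in each zone and day, and for the saline EZ against the saline PIZ at day 3 (columns); an asterisk marks an adjusted p under 0.01 with a change of over 1.5-fold. The EZ columns at days 3 and 7 and the PIZ column at day 3 hold 8, 9 and 7 asterisks, and the PIZ columns at days 7 and 14 hold none.

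The sides of the saline mice were compared to show how the genes stood after the injection alone. At 3 days after saline, the injected side exceeded the opposite side for Gfap, by 2.62 ± 0.42 (SE), adjusted p = 0.00214 on the log2 scale, and for Aspg, by 2.18 ± 0.39 (SE), adjusted p = 0.00755. These were 2 of the 6 genes that did so among the 21390 tested (0.0281%). Both calls were lost when any 1 saline mouse was left out, with log2 differences of 2.35 to 2.71 for Gfap and 2.02 to 2.37 for Aspg. For 6 of the 10 genes, namely Gfap, Vim, Serpina3n, Cd44, S1pr3 and Aspg, all 4 saline EZ libraries lay above all 4 saline PIZ libraries, as they did for 5.16% of all genes, although Vim (2.29 ± 0.50, adjusted p = 0.0769), Cd44 (2.38 ± 0.69, adjusted p = 0.353), Serpina3n (1.6 ± 0.46, adjusted p = 0.353) and S1pr3 (1.03 ± 0.53, adjusted p = 0.834) did not pass the edgeR test. Limma-voom called Vim, Cd44 and Serpina3n, and DESeq2 (adjusted p = 0.00112) and the fit to the compared groups (adjusted p = 0.00653) called Vim. For Cd44 the gap was narrow, since the highest saline PIZ library reached 3.67 CPM and the lowest saline EZ library 5.12 CPM, both from mouse 18. Nes and Hspb1 differed little between the sides of the saline mice, with log2 differences of 0.24 ± 0.30 and 0.37 ± 0.44. The mice were also ordered alike across genes: mouse 29 had the highest EZ level for 9 of the 10 genes and mouse 18 the lowest for 10 of 10. By day 7 the saline EZ was at 601 ± 143 CPM (SD, n = 4) for Gfap against 338 ± 22.7 CPM in the saline PIZ, 0 of the 10 genes passed the edgeR test, 3 had an unadjusted p under 0.05, DESeq2 and limma-voom called 0, and 6 (Gfap, Vim, Serpina3n, Cd44, Aspg and Steap4) did not overlap between the sides, beside 2.09% of all genes. Gfap, the last of those 3 at an edgeR p of 0.0423, ranked 267 of the 21390 tested genes by p.

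At day 3, fold changes and levels ranked the zones differently. For Gfap the kainate effect was smaller in the EZ than in the PIZ, by a log2 difference of -2.38 ± 0.56 (SE), adjusted p = 0.0396, and for Aspg by -1.95 ± 0.52 (SE), adjusted p = 0.058. For Hspb1 and Nes it was larger in the EZ, by 1.65 ± 0.60 (SE), adjusted p = 0.145 and 1.20 ± 0.42 (SE), adjusted p = 0.136. None of the 10 passed the threshold in that test of the difference, which 0.0655% of all genes passed in one direction or the other, and 4 of the 10 had an unadjusted p under 0.05. The next of the 10, Vim at an edgeR p of 0.058, ranked 4170 of the 21390 tested genes by p. With the mouse as a block, which sets the 2 sides of a mouse against each other, Gfap (adjusted p = 0.0018) and Aspg (adjusted p = 0.0059) passed. DESeq2 called 1 of the 10 and limma-voom 4. In absolute level, by contrast, no gene was lower in the EZ: within the kainate mice at day 3 the EZ exceeded the PIZ in 4 of 4 mice for 9 of the genes, and in 3 of 4 for Nes. The mean log2 excess was only 0.24 ± 0.10 for Gfap and 0.25 ± 0.18 for Aspg, but 1.98 ± 0.93 for Hspb1 and 1.68 ± 0.76 for Cd44 (SD, n = 4). With 4 mice an exact sign-flip test can give no p below 0.125.

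**Figure D3:**
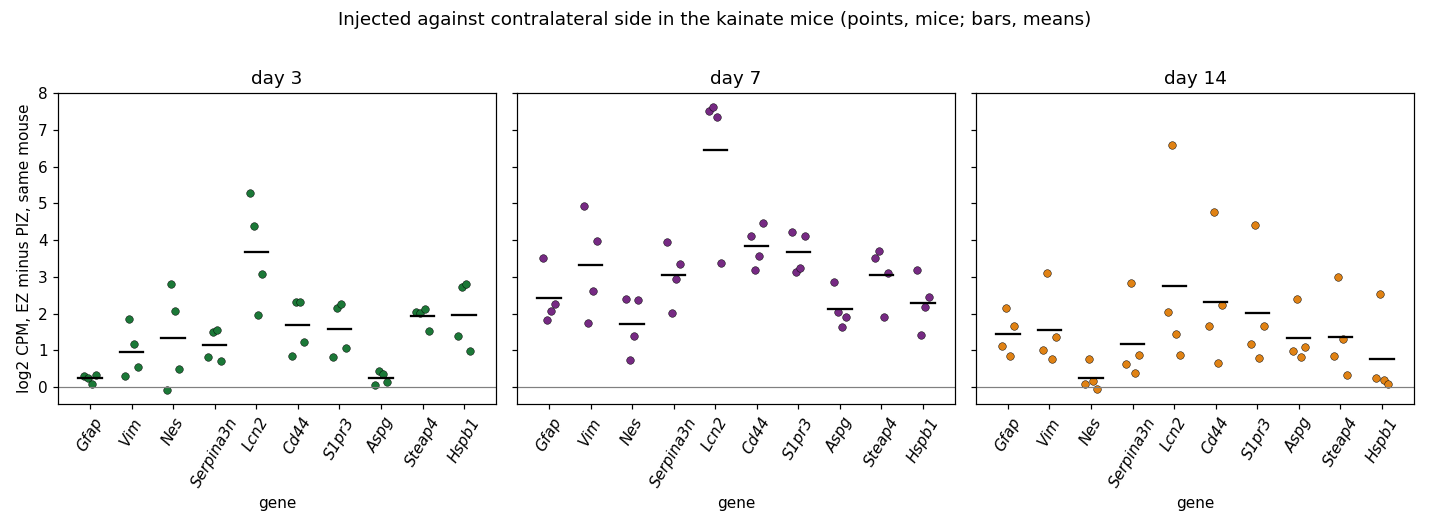
Log2 CPM of the EZ minus the PIZ of the same kainate mouse for each gene (horizontal axis) at each day; points are mice and bars the means of 4. At day 3 the points of Gfap and Aspg lie close to 0, while at day 7 the points of all 10 genes lie above 0.

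At day 7 the calls differed between the 2 zones. Whether the difference between the zones changed from day 3 was not tested. In the EZ, 9 of the 10 genes were higher after kainate (20.6% of all genes), the kainate and saline libraries did not overlap for any of the 10 (23.7% of all genes with kainate higher), and the median log2 fold change was 3.28 (0.01 over all genes). In the PIZ, 0 of the 10 passed the edgeR test (0.150% of all genes), 5 had an unadjusted p under 0.05, DESeq2 called 2 and limma-voom 5. The next of the 10, Steap4 at an edgeR p of 0.0512, ranked 3151 of the 21390 tested genes by p.

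Gfap in the EZ was at 6783, 5545, 4851 and 6580.0 CPM after kainate and at 429, 693, 741 and 539.6 CPM after saline, and its log2 fold change was 3.31 ± 0.43 (SE), adjusted p = 7.92e-08. The kainate level was close to that of day 3 (5168 CPM on average), and the saline level had come down from 2130.1 to 601 CPM, so the larger fold change at day 7 came with a lower reference. The difference between the day 7 and day 3 effects in the EZ, 2.03 ± 0.56 (SE), adjusted p = 0.0862, did not pass the test. Of the 10 genes, 0 passed it with edgeR (0.145% of all genes), 2 had an unadjusted p under 0.05, DESeq2 called 0 and limma-voom 2. The next of the 10, Steap4 at an edgeR p of 0.0522, ranked 2630 of the 21390 tested genes by p. In the PIZ, Gfap was at 591, 1565, 1151 and 1370.5 CPM after kainate and 339, 311, 335 and 366 CPM after saline, without overlap, and the log2 fold change of 1.79 ± 0.40 (SE), adjusted p = 0.0174 missed the threshold. Without kainate mouse 21, whose PIZ was the lowest of its group, that gene passed with a log2 fold change of 2.01.

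Vim and the receptors kept most of their level in the EZ. Vim was at 1247, 304, 501 and 1259 CPM after kainate against 32.9 to 40.7 CPM after saline, a log2 change of 4.47 ± 0.55 (SE), adjusted p = 3.95e-08. Cd44 was at 134, 65.2, 100.3 and 171 CPM against 1.99 to 3.82 CPM, the largest log2 fold change of the 10 at 5.20 ± 0.70 (SE), adjusted p = 1.32e-07. S1pr3 was at 208, 98.8, 150.3 and 239 CPM against 7.53 to 11 CPM, a log2 change of 4.20 ± 0.57 (SE), adjusted p = 1.72e-07. For all 3 genes kainate mouse 23 was the lowest of its group, as it was for 8 of the 10, and mice 21 and 35 the highest. Serpina3n (3.79 ± 0.50 (SE), adjusted p = 1.02e-07) and Aspg (2.86 ± 0.38 (SE), adjusted p = 1.07e-07) rose as well. Steap4 reached 6.58, 4.13, 2.30 and 3.61 CPM after kainate, its highest group mean, against 0.330 to 0.521 CPM after saline, and now passed the test (3.25 ± 0.60 (SE), adjusted p = 2.14e-05). In the PIZ at day 7, Cd44 was at 7.11 to 8.44 CPM after kainate and 1.37 to 1.71 CPM after saline, with a log2 change of 2.35 ± 0.72 (SE), adjusted p = 0.0901. Of the 10 genes, 7 did not overlap between the PIZ groups, beside 7.63% of all genes.

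Nes and Hspb1 were lower at day 7 than at day 3 in the kainate EZ. Nes went from 94.0 ± 55.9 to 39.8 ± 18.8 CPM and Hspb1 from 32.4 ± 11.8 to 12.9 ± 5.48 CPM (SD, n = 4), with overlap between the days. Both were still above saline, with log2 fold changes of 2.04 ± 0.31 (SE), adjusted p = 1.04e-06 for Nes and 2.41 ± 0.44 (SE), adjusted p = 1.9e-05 for Hspb1. In the PIZ their kainate levels, 10.2 to 12 CPM for Nes and 1.77 to 3.26 CPM for Hspb1, overlapped the saline levels of 9.04 to 11.5 and 1.70 to 2.72 CPM.

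The test of the difference between the zones passed at day 7 for 4 of the 10 genes (7.00% of all genes in this direction). The kainate effect was larger in the EZ for S1pr3 by 3.48 ± 0.76 (SE), adjusted p = 0.00248, for Vim by 2.92 ± 0.69 (SE), adjusted p = 0.00367, for Serpina3n by 2.77 ± 0.65 (SE), adjusted p = 0.00352 and for Nes by 1.95 ± 0.43 (SE), adjusted p = 0.00275. Hspb1, at 2.22 ± 0.63 (SE), adjusted p = 0.0101, lay just outside the threshold. Gfap (1.51 ± 0.56 (SE), adjusted p = 0.0402) and Cd44 (2.85 ± 0.99 (SE), adjusted p = 0.0304) missed it too. With the mouse as a block 7 of the 10 passed, while leaving out single mice gave from 0 to 5, with 0 when saline mouse 20 or 89 or kainate mouse 21 or 35 was left out and 2 without saline mouse 34. The share of 7.00% is not that of these alternatives, for which none was computed. Where a call was lost, the log2 difference was 3.31 to 3.45 for S1pr3, 2.46 to 2.99 for Vim, 2.49 to 2.84 for Serpina3n and 1.73 to 1.97 for Nes. The fall of the PIZ effect from day 3 to day 7 was tested directly and passed for 0 of the 10 genes with edgeR across all 12 groups (0.0234% of all genes), with 8 at an unadjusted p under 0.05, 1 by DESeq2 and 4 by limma-voom; for Vim the difference was -2.99 ± 0.69 (SE), adjusted p = 0.0613. The next of the 10 after those 8, Hspb1 at an edgeR p of 0.0631, ranked 2701 of the 21390 tested genes by p.

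Lcn2 varied between mice of a group on both sides. In the EZ at day 7 it was at 41.1, 17.8, 21.6 and 48.1 CPM after kainate, above every saline library, but the log2 fold change of 2.98 ± 1.16 (SE), adjusted p = 0.0274 did not pass with edgeR, while limma-voom gave 5.18 and called it (adjusted p = 0.000215). Saline mice 20 and 34 carried 5.36 and 11.1 CPM in the EZ and 8.00 and 10.8 CPM in the PIZ. Saline mice 33 and 89 carried at most 1 Lcn2 count in any of their 4 libraries. A saline mouse was therefore high on both sides or on neither. At day 3, saline mice 29 and 41 were the higher pair on both sides, with 14.6 and 9.40 CPM in the EZ and 1.56 and 3.14 CPM in the PIZ, against 1.15 and 2.26 CPM in the EZ of mice 18 and 37. In the PIZ at day 7 the kainate libraries were at 0.136, 0, 0.0418 and 4.56 CPM, and the log2 fold change was -2.01 ± 1.28 (SE), adjusted p = 0.48, the only negative value of the 10 in that comparison.

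At day 14 the count of genes that rose in the EZ was 6 of 10 (2.32% of all genes), and the groups did not overlap for 6 of 10 (4.58% of all genes with kainate higher), but these calls changed with single mice left out. Gfap was at 843, 5873, 728 and 1502 CPM after kainate, the highest from mouse 27, and at 480.4, 501, 426 and 529 CPM after saline. Its log2 fold change of 2.21 ± 0.41 (SE), adjusted p = 0.0011 became 1.08 (adjusted p = 0.0789) without mouse 27. Cd44 showed the same form, with 6.5, 142, 5.28 and 14.2 CPM after kainate, 3.76, 1.95, 2.12 and 2.80 CPM after saline and a log2 change of 3.98 ± 0.68 (SE), adjusted p = 0.000693 that became 1.72 (adjusted p = 0.246). S1pr3 went from 3.12 to 0.85, Serpina3n from 2.62 to 0.84, Vim from 2.64 to 0.98 and Aspg from 1.61 to 0.62 on leaving out that mouse. With it left out, 0 of the 10 passed. Without saline mouse 31 only 1 passed, though the log2 fold changes stayed near those with all mice (Gfap 2.15, Vim 2.57). Aspg also lost its call without any 1 of the 4 saline mice, at 1.51 to 1.73, and Vim without saline mouse 39, at 2.66 (adjusted p = 0.012). A fit to the compared groups alone called 0 with log2 fold changes as large (Gfap 2.22, Vim 2.66). Limma-voom with quality weights called 0 with smaller log2 fold changes (Gfap 0.89, Vim 0.85, S1pr3 0.78).

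The remaining 3 kainate mice still lay above the saline EZ libraries for Gfap, Vim, Serpina3n, Lcn2, Cd44 and S1pr3. Lcn2 was at 0.655, 22.6, 0.393 and 2.09 CPM, again highest in mouse 27, against 0.198, 0.0999, 0 and 0.317 CPM after saline, where the 4 libraries held at most 7 counts each; its log2 fold change was 5.32 ± 1.69 (SE), adjusted p = 0.0564, or 2.76 without mouse 27. Nes (0.34 ± 0.31 (SE), adjusted p = 0.588) and Hspb1 (1.25 ± 0.44 (SE), adjusted p = 0.0993) overlapped saline, and Hspb1 was at 2.37, 2.25 and 2.26 CPM outside mouse 27, without which its log2 fold change was 0.01. Steap4 did not pass either (1.91 ± 0.64 (SE), adjusted p = 0.0744), and stood at 0.33 without mouse 27. Mouse 27 also had the highest PIZ level of its group for 9 of the 10 genes, with 1326 CPM of Gfap against 386, 405 and 469.5 CPM. The PIZ as a whole had 0 of 10 genes called by edgeR at day 14 (0.00935% of all genes), 1 at an unadjusted p under 0.05 and 0 by DESeq2 or limma-voom, and log2 fold changes that ran from -0.18 ± 0.46 for Hspb1 to 0.82 ± 0.40 for Gfap, or -0.26 and 0.19 without mouse 27. With all mice Gfap, at an edgeR p of 0.0454, ranked 1190 of the 21390 tested genes by p. The change of the EZ effect from day 7 to day 14 passed for 0 of the 10 genes (0.271% of all genes) with all mice and 3 had an unadjusted p under 0.05. Gfap, next at an edgeR p of 0.0558, ranked only 7401 of the 21390 tested genes, so that count did not set the 10 apart. The change passed for 9 of the 10 without mouse 27, with log2 differences of -1.10 ± 0.56 for Gfap and -1.83 ± 0.68 for Vim going to -2.22 and -3.49. DESeq2 called 1 and limma-voom 9. The share of 0.271% belongs to the edgeR fit with all mice. Shares of all genes without mouse 27 or by the other methods were not computed.

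Across the 12 groups, the kainate EZ at day 3 or day 7 came first for every gene. The rest of the order differed between genes: for Lcn2 the saline EZ at day 3 stood above the kainate PIZ at day 3, and for Nes the kainate PIZ at day 7 stood below the saline PIZ at days 3 and 14. In both cases the ranges of the groups overlapped, so the order of these means is not resolved. For Gfap the order ran on through the kainate PIZ at day 3 (4369 ± 187 CPM), the kainate EZ at day 14 (2236 ± 2448 CPM), the saline EZ at day 3 (2130.1 ± 862 CPM) and the kainate PIZ at day 7 (1169 ± 421 CPM, SD, n = 4). Between neighbours in that order the ranges of Gfap failed to overlap only between the kainate EZ and the kainate PIZ at day 3. Per kilobase of exon, the group means of Gfap ran from 59.2 to 1040.1 CPM per kb, Serpina3n peaked at 359.6, Vim at 270.4, S1pr3 at 40.5, Hspb1 at 31, Cd44 at 21.3, Lcn2 at 16.6, Nes at 14.7, Aspg at 6.04 and Steap4 at 1.16 CPM per kb. The gene most like Gfap over the 12 group means was Fxyd1, with a Pearson r of 0.992 of log2 levels, followed by Aspg (0.991), A2m (0.991), 2810459M11Rik (0.989) and Endou (0.986). The gene most like Lcn2 was Abcc4 (0.967), followed by Rps7-ps3, Pdgfd, Sdf2l1 and Gm4833, all at 0.962 or 0.963. Among the 10, r was highest between Vim and Serpina3n (0.995) and lowest between Lcn2 and Aspg (0.822). The 12 means share libraries between genes and sides of the same mice, so these values are descriptions.

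Genes of the gp130-STAT3 pathway were examined next, from ligand to inhibitor. Of its ligands, 5 of 5 tested rose in the EZ at day 3, 4 of 5 in the EZ at day 7 and 4 of 5 in the PIZ at day 3, with medians of 2.56, 3.48 and 2.34 on the log2 scale. Over all genes 16.1%, 20.6% and 7.12% rose. Clcf1, which signals through the CNTF receptor, went from 1.96 to 34.7 CPM in the EZ (4.14 ± 0.48 (SE), adjusted p = 4.25e-08) and from 0.816 to 13.7 CPM in the PIZ (4.06 ± 0.51 (SE), adjusted p = 6.73e-07). Lif, the leukemia inhibitory factor, went from 1.5 to 16.3 CPM in the EZ (3.44 ± 0.54 (SE), adjusted p = 4.07e-06). Osm rose by 2.46, Cntf by 1.63 and Il11 by 2.56 in the EZ at day 3. Il6 was too low to test, at 0.0363 to 0.230 CPM in the kainate EZ at day 3. In the PIZ the number of ligands called was 3 without kainate mouse 38 and 2 without any 1 of the other mice.

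Of the receptors, 2 of 6 rose in the EZ at day 3, 3 of 6 at day 7 and 1 of 6 in the PIZ at day 3, where 16.1%, 20.6% and 7.12% of all genes rose. Osmr, the oncostatin M receptor, was the one called in all 3: it was at 59.0 to 81.0 CPM in the kainate EZ and 8.17 to 19.0 CPM in the saline EZ at day 3 (2.43 ± 0.41 (SE), adjusted p = 1.24e-05), and the PIZ log2 fold change was 2.51 ± 0.43 (SE), adjusted p = 5.18e-05. Il6st, which encodes gp130 itself, rose by 0.71 ± 0.16 (SE), adjusted p = 0.000392 in the EZ at day 3, and Il6ra joined at day 7 (1.6 ± 0.24 (SE), adjusted p = 1.14e-06). Lifr, Cntfr and Il11ra1 passed in none of these comparisons. Of the kinases, factor and inhibitors, 3 of 7 rose in the EZ on both days and 2 of 7 in the PIZ at day 3. Socs3, the feedback inhibitor that STAT3 induces, was at 33.1 to 55.1 CPM in the kainate EZ against 0.750 to 4.59 CPM in the saline EZ (4.30 ± 0.70 (SE), adjusted p = 6.66e-06), and its PIZ log2 fold change was 4.33 ± 0.76 (SE), adjusted p = 7.9e-05. Stat3 rose by 1.46 ± 0.21 (SE), adjusted p = 1.02e-06 in the EZ and 1.41 ± 0.21 (SE), adjusted p = 8.27e-06 in the PIZ. Socs1 rose in the EZ (2.96), and its PIZ value of 1.72 ± 0.61 did not pass. Jak1, Jak2, Tyk2 and Pias3 did not pass.

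**Figure D4:**
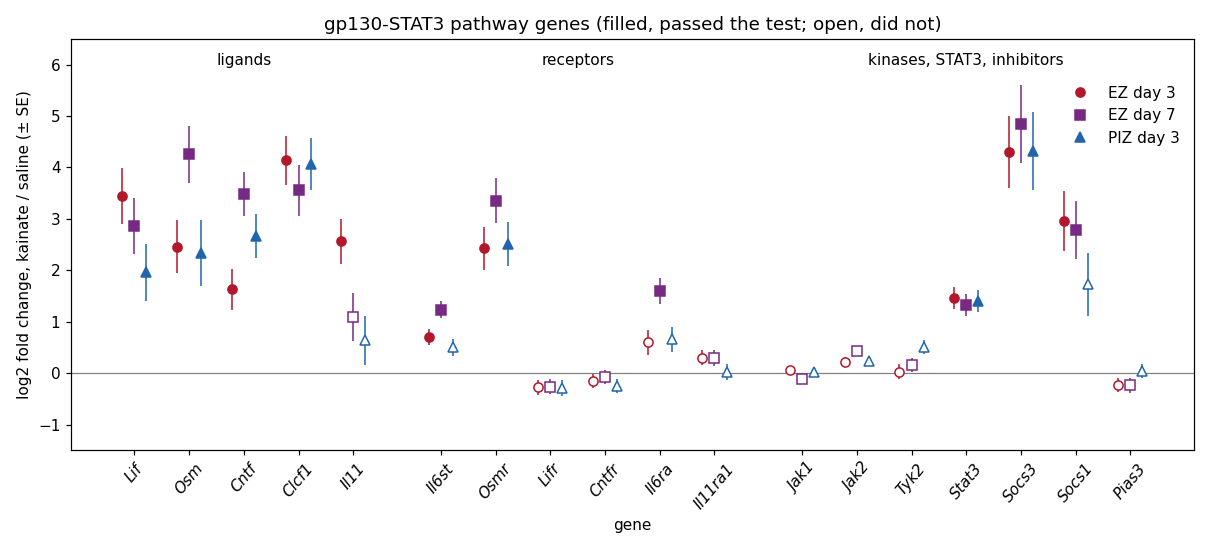
Log2 fold changes (± SE) of the ligands, receptors and kinases, factor and inhibitors of the gp130-STAT3 pathway, kainate against saline, in the EZ at days 3 and 7 and the PIZ at day 3; filled symbols passed the test. Clcf1, Osmr, Stat3 and Socs3 lie above 0 in all 3 comparisons, and Lifr, Cntfr, Jak1 and Pias3 lie close to it.

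Among 14 molecular partners of the 10 proteins, 7 rose and 1 fell in the EZ at day 3, 7 rose and 1 fell in the EZ at day 7, and 3 rose and 1 fell in the PIZ at day 3; over all genes 16.1%, 20.6% and 7.12% rose and 8.61%, 11.9% and 1.57% fell. A ligand of CD44 and an enzyme that makes another were among those that rose in the EZ. Spp1, which encodes osteopontin, was at 129 to 4399.7 CPM in the kainate EZ and at 2.56 to 21.1 CPM in the saline EZ (7.61 ± 1.05 (SE), adjusted p = 6.05e-07). Has2, a hyaluronan synthase, was at 3.28 to 11.4 CPM and 0.0487 to 0.540 CPM in the same groups (4.37 ± 0.60 (SE), adjusted p = 6.12e-07). Neither passed in the PIZ (3.30 ± 0.98 for Spp1 and 1.76 ± 0.65 for Has2), where Cd44 itself did. For S1PR3, the kinase that makes its ligand, Sphk1, rose by 4.17 ± 0.51 (SE), adjusted p = 9.69e-08 in the EZ and by 2.34 ± 0.51 (SE), adjusted p = 0.000925 in the PIZ, while Sphk2 (0.34 ± 0.10) did not pass. S1pr1, the receptor that astrocytes share with endothelial cells, fell by 0.65 in the EZ at day 3 (adjusted p = 7.06e-05). Of the relatives of Steap4, Steap1 (2.81) and Steap3 (1.16) rose and Steap2 (-0.11 ± 0.13) did not pass. Hspb8 (1.18) and Cryab (1.04), chaperones of the same family as HSP27, rose in the EZ, and the heat shock factor Hsf1 (-0.03 ± 0.09) did not pass. Synm, a filament protein that assembles with vimentin and GFAP, was the gene that fell in the EZ at day 7 (-0.64) and in the PIZ at day 3 (-0.69).

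Other marker lists for reactive astrocytes were read beside all tested genes, of which 16.1% rose and 8.61% fell in the EZ at day 3, 20.6% rose and 11.9% fell in the EZ at day 7, and 7.12% rose in the PIZ at day 3. The remaining pan-reactive genes rose in 4 of 4 cases in the EZ at days 3 and 7 and in 3 of 4 in the PIZ at day 3. Timp1, an inhibitor of metalloproteinases, showed the saline pattern of Gfap in stronger form: at day 3 its saline levels were 1.68 to 14.0 CPM in the EZ and 0.0433 to 0.194 CPM in the PIZ, and its log2 fold changes were 3.56 ± 0.65 in the EZ and 7.20 ± 0.97 in the PIZ. Cxcl10, a chemokine, rose by 4.8 in the EZ and 3.82 in the PIZ, and Cp, ceruloplasmin, by 1.51 in the EZ. Of the A1 list, tied to inflammation, 9 rose and 1 fell of 12 in the EZ at day 3, 10 rose and 1 fell at day 7, and 7 of 12 rose in the PIZ at day 3; the gene that fell was Amigo2 (-1.71 at day 3). Of the A2 list, tied to ischaemia, 10 of 11 tested rose in the EZ at day 3, 9 of 11 at day 7 and 8 of 11 in the PIZ at day 3, or 4 of 11 there without kainate mouse 30. The A2 list shares Clcf1 with the ligands and Sphk1 with the partners, and the pan-reactive genes share Osmr with the receptors.

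Genes of resting astrocytes moved in both directions. Of 14 homeostatic astrocyte genes, 5 rose and 3 fell in the EZ at day 3, 8 rose and 0 fell in the EZ at day 7, and 6 rose and 0 fell in the PIZ at day 3, with median log2 fold changes of 0.15, 0.77 and 0.32; over all genes 16.1% rose and 8.61% fell in the EZ at day 3, 20.6% and 11.9% in the EZ at day 7, and 7.12% and 1.57% in the PIZ at day 3. Those that fell at day 3 were the glutamate transporter Slc1a2 (-0.95 ± 0.14 (SE), adjusted p = 2.1e-06), Aldoc (-0.92) and the glutamine synthetase Glul (-0.64). Those that rose included the water channel Aqp4 (0.87) and the potassium channel Kcnj10 (0.99), with Aldh1l1 (1.21), Sox9 (0.93) and Fgfr3 (0.95). The summed level of the 14 genes was 6435 to 7651 CPM in the kainate EZ at day 3 and 7819 to 9001 CPM in the saline EZ. The sum of the 10 reactive genes went from 1554 to 3903 CPM to 8005 to 8667 CPM.

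Markers of other cell types moved in the same libraries, where over all genes 16.1% rose and 8.61% fell in the EZ at day 3 and 7.12% rose in the PIZ. In the EZ at day 3, 7 of 9 microglial markers rose, with a summed level of 1602 to 2738 CPM after kainate and 584 to 1012 CPM after saline; in the PIZ at day 3, 9 of 9 rose, from 343 to 469 CPM to 1129 to 1380.5 CPM. Of 7 endothelial markers, 4 rose in the EZ at day 3 (Pecam1, Cldn5, Cdh5 and Kdr; 289 to 435 CPM after kainate and 213 to 255 CPM after saline), and 5 of 5 fibroblast markers did (65.0 to 345 and 24.6 to 44.1 CPM). In the PIZ at day 3, 0 of 7 endothelial and 0 of 5 fibroblast markers passed, with fibroblast sums of 36 to 80.3 and 21.4 to 57.6 CPM. The kainate mouse with the highest EZ sums of endothelial and fibroblast markers at day 3, mouse 38, was also the highest for Vim, Nes, Cd44 and S1pr3. Leukocyte markers rose for 3 of 6 tested in the EZ at day 3 (Ccr2, Itgal and Plac8) and for 0 of 6 in the PIZ, and the neutrophil genes S100a8 (1.62 ± 0.75) and S100a9 (1.84 ± 0.86) did not pass. Granule neuron markers fell for 2 of 5 in the EZ at day 3, where their sum was 396 to 726 CPM after kainate. In the EZ at day 7 (20.6% of all genes rose and 11.9% fell), 9 of 9 microglial markers rose, with a median log2 fold change of 2.66 and a summed level of 1893 to 7122 CPM after kainate and 496 to 548 CPM after saline. There 4 of 7 endothelial, 5 of 5 fibroblast and 3 of 6 leukocyte markers rose, and 2 of 5 granule neuron markers fell. In the EZ at day 14 (2.32% of all genes rose), 6 of 9 microglial markers rose with all mice, at 560.0 to 3510.0 CPM after kainate, the highest from mouse 27, and 452 to 476 CPM after saline. That mouse stood far above its group, and the count of microglial markers called without it was not computed. The part of these cell types in the levels of the 10 genes was not tested.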

How the data were processed

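RNA-seq of the dorsal dentate gyrus of 24 mice (48 libraries) was analysed from the count table. Per the labels and the study's methods, the authors trimmed stranded poly-A reads with fastp 0.20.1, mapped them to GRCm39 with HISAT2 2.2.1 and deposited raw read counts per gene from featureCounts (Subread 1.6.4, Gencode M28). Reads mapping to several places were counted at their primary alignment and could count for overlapping genes, so that counts of near-identical genes are uncertain. RNA of all samples was extracted together. Gene symbols were matched to 98.9% of the identifiers through the annotation.

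Samples were grouped by zone, treatment and day as the labels give them, 4 mice a group. Counts were filtered (filterByExpr), scaled by TMM and tested with edgeR 4.0.16 (quasi-likelihood, 12 group means, R 4.3.3), with Benjamini-Hochberg adjustment over 21390 genes; the thresholds, an adjusted p under 0.01 and 1.5-fold, follow the study. Levels are TMM-scaled CPM, and log2 CPM used a prior count of 2. Standard errors were derived from the F statistic. Single values were also compared by an exact two-sided permutation test of 4 against 4, which can give no p below 0.0286. Alternatives were DESeq2 1.42.0, limma-voom 3.58.1, RLE or library-size scaling, other count filters, an adjusted p under 0.05, a fit to the compared groups, CPM without the prior count, the mouse as a block, and leaving out each mouse. EZ and PIZ libraries of a mouse are paired by animal; their residuals correlated with r from -0.05 to 0.38, above 0.1 in 20 of 24 mice. Tested on data simulated for the EZ at day 3 (21390 genes), the procedure called 54.8% of 2-fold and 80.4% of 4-fold changes and 0 of 21190 unchanged genes. Only 93 and 107 genes were changed there, and the 2 libraries of a mouse were drawn independently. These rates may therefore not carry over to the real data, where far more genes changed. No 2 libraries were identical. Precision is limited by 4 mice a group and, for libraries with few counts, by counting error.

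The 10 genes and the lists were chosen with earlier results of these data known. All 10 genes, the gp130-STAT3, pan-reactive and partner genes could be named; of other lists, the 2 most abundant per length, the 2 ranked first by p for the EZ at day 3, and the genes behind any count of 5 or fewer; and the 5 genes most like Gfap and Lcn2. Promoter windows were read from GRCm39 at the start of 1 canonical transcript a gene. Values of 1 gene of the marker lists are not reported here.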

Additional observations from a re-analysis of the deposited data

Results flagged for a closer look

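In 10 of the 120 sets of 4 libraries, a single library lay further from the other 3 than Dixon's test allows (its critical value at the 95% level, on log2 CPM). Chance flags about 1 in 20 sets. Kainate mouse 27 at day 14 accounted for 6 of the 10. Its EZ was high for Serpina3n (1139.6 CPM, others 83.6 to 129 CPM), S1pr3 (255 CPM, others 12.8 to 20.8 CPM), Steap4 (4.08 CPM, others 0.403 to 0.562 CPM) and Hspb1 (14.6 CPM, others 2.25 to 2.37 CPM). Its PIZ was high for Gfap (1326 CPM, others 386 to 469.5 CPM) and Serpina3n (161 CPM, others 63.5 to 70.1 CPM). The summed level of 9 microglial markers in its EZ was 3510.0 CPM against 560.0 to 815 CPM in the other mice, and that of 5 granule neuron markers was 439.7 CPM against 682 to 1075 CPM; their part in these values was not tested.

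The remaining 4 were Vim in the PIZ of kainate mouse 21 at day 7, which was low at 40.8 CPM (others 79.9 to 90.3 CPM), Lcn2 in the PIZ of kainate mouse 40 at day 14, high at 1.10 CPM (others 0.0854 to 0.143 CPM), Cd44 in the PIZ of saline mouse 39 at day 14, high at 7.34 CPM (others 1.77 to 1.98 CPM), and S1pr3 in the PIZ of saline mouse 89 at day 7, low at 6.59 CPM (others 8.10 to 8.41 CPM).

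The kainate effect differed between the EZ and the PIZ at day 7, by the test of that difference itself, for 4 genes: Vim by 2.92, Nes by 1.95, Serpina3n by 2.77 and S1pr3 by 3.48 on the log2 scale, each larger in the EZ, beside 7.00% of all genes in this direction. All 4 calls were lost when saline mouse 20 or 89 or kainate mouse 21 or 35 was left out. In all 4 kainate mice the EZ level of each of these genes exceeded the PIZ level.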

How the results depend on the processing

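Counts of the 10 genes called were recomputed under the alternatives and with each mouse left out in turn, and 220 of 258 such counts stayed within 1.5 times the value reported. In the EZ at day 3 and day 7 and the PIZ at day 3 all did, with 7 to 9, 9 and 7 to 8 calls on leaving out 1 mouse. In the EZ at day 14, limma-voom with quality weights and a fit to the compared groups alone gave 0, and leaving out 1 mouse gave 0 to 6 (0 without kainate mouse 27, 1 without saline mouse 31). In the PIZ at day 7, DESeq2 gave 2, limma-voom 5, an adjusted p under 0.05 gave 2, the compared groups alone 4, and leaving out 1 mouse 0 to 1 (1 without kainate mouse 21). For the difference between zones at day 3, DESeq2 gave 1, limma-voom 4, an adjusted p under 0.05 gave 1 and the mouse as a block 2. For that difference at day 7, limma-voom gave 7, an adjusted p under 0.05 gave 8, the compared groups alone 7, the mouse as a block 7, and leaving out 1 mouse 0 to 5 (0 without saline mouse 20 or 89 or kainate mouse 21 or 35, 2 without saline mouse 34). For the EZ effect at day 7 minus day 3, limma-voom gave 2. For the EZ effect at day 14 minus day 7, DESeq2 gave 1, limma-voom 9, an adjusted p under 0.05 gave 1, and leaving out 1 mouse 0 to 9 (9 without kainate mouse 27, 1 without kainate mouse 23 or 26). For the PIZ effect at day 7 minus day 3, DESeq2 gave 1, limma-voom 4 and the compared groups alone 5. For the saline EZ against the saline PIZ at day 3, limma-voom gave 5, a minimum of 10 counts in every library 1, and leaving out 1 mouse 0 to 0. The mouse block changed no other count of calls by over 1.5 times. Shares of all genes called were not computed under these alternatives, so their counts have no such reference. Of the log2 fold changes printed, 1200 of 1335 recomputed values kept direction and call, and 1 turned: Nes in the EZ at day 14 was -0.00011 without kainate mouse 27, and on leaving out 1 mouse it ranged up to 0.52. The cause of these changes was not tested, except that leaving out a mouse or a group leaves fewer libraries. A minimum of 10 counts in every library left out Lcn2 and Steap4, so it gave no value for them, and it removed low genes of the lists (gp130 ligands in the EZ at day 3, 2 called in place of 5). Lcn2 and Steap4 had as few as 0 counts in a library.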

Other observations

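Progenitor and proliferation markers moved in both directions at day 3 (log2 fold changes ± SE, edgeR, called as in the report). Over all tested genes 16.1% rose and 8.61% fell in the EZ at day 3, and 7.12% and 1.57% in the PIZ. In the EZ at day 7 those shares were 20.6% and 11.9%. Mki67 and Top2a, which are expressed by dividing cells of any type, rose in the EZ (3.09 ± 0.46 and 3.02 ± 0.45) and in the PIZ (3.39 ± 0.50 and 3.36 ± 0.48). Hes5, a Notch target of neural stem cells, fell in the EZ (-2.23 ± 0.44) and in the PIZ (-2.0 ± 0.41). Eomes, a marker of intermediate progenitors, fell in the EZ (-2.77 ± 0.62), and its value in the PIZ was -0.01 ± 0.55. At day 7 in the EZ, Mki67 (4.09 ± 0.50), Top2a (4.13 ± 0.49) and Sox2 (0.71 ± 0.15) rose, and Hes5 fell (-1.29 ± 0.40).

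The next markers are read beside the same shares of all genes. In the EZ 16.1% rose and 8.61% fell at day 3, and 20.6% and 11.9% at day 7. In the PIZ at day 3, 7.12% rose and 1.57% fell. Of 5 pericyte and smooth muscle markers, Pdgfrb (0.79 ± 0.18), Rgs5 (0.80 ± 0.15) and Kcnj8 (0.95 ± 0.24) rose in the EZ at day 3, while in the PIZ the 5 values lay between -0.34 and 0.42 and none was called. The 4 oligodendrocyte markers lay between -0.28 and 0.43 in the EZ at day 3, and Mag rose there at day 7 (1.07 ± 0.29). Of 3 choroid plexus markers tested, only Kl was called, and it fell in the EZ at day 3 (-1.5 ± 0.38) and day 7 (-1.91 ± 0.39). Ttr stood at -0.21 ± 0.82 at day 3. It held at most 62 counts in any library, while Kl reached 600. Whether the fall of Kl came from choroid plexus was not tested. Of 5 granule neuron markers, Calb1 (-1.20 ± 0.34) and Dsp (-1.81 ± 0.55) fell in the EZ at day 3, and Calb1 fell in the PIZ (-2.37 ± 0.35).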
